A study of Mus musculus with 27 samples.

Results

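The genes described here are 10 members of the Wnt signaling pathway expressed in mouse embryonic fibroblasts (MEFs): the ligands Wnt5a, Wnt5b and Wnt9a, the secreted antagonists Sfrp1, Sfrp2, Dkk2 and Dkk3, the receptors Fzd1 and Fzd2, and the target gene Axin2. They were chosen by gene symbol and make up 10 of the 37310 genes in the expression table. All 10 were among the 15387 genes that had enough counts to be tested.

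RNA-seq was performed on wild-type (WT) MEFs and on Firre KO MEFs of both sexes, giving 4 groups of 3 libraries each: female WT, female KO, male WT and male KO. The KO removes the locus of Firre, a long non-coding RNA gene on the X chromosome, through recombination between loxP sites placed on either side of it, and WT MEFs keep the locus. MEFs are primary cultures of connective tissue cells, here from mid-gestation embryos without head, limbs and viscera, used at low passage and without further treatment. The labels do not tie a library to an embryo or a culture, so sex, embryo and culture cannot be told apart, and p-values measure the spread between these libraries, which may be technical.

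Wnt proteins are secreted lipid-modified ligands that bind Frizzled receptors at the cell surface. In the canonical branch, Frizzled and the co-receptors Lrp5 and Lrp6 stop a destruction complex from degrading beta-catenin, which then enters the nucleus and activates target genes together with TCF/LEF factors. Other branches act on cell polarity and calcium without beta-catenin. Secreted antagonists trap Wnts (the Sfrp family) or block the co-receptors (some members of the Dkk family). In the embryonic mesenchyme these signals pattern the limbs, the skeleton and the skin.

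The library totals ranged from 42986516 to 65454660 expected counts, and the 6 male libraries were all deeper than the 6 female ones. Expression is given as CPM, which are counts scaled to a common library size with TMM factors. Firre itself ranged from 1.99 to 4.95 CPM in the 6 WT libraries and had 0 counts in the 6 KO libraries. All 12 fibroblast markers checked were detected, and their summed expression was 16487 to 20287 CPM in female MEFs and 19437 to 24572 CPM in male MEFs. Markers of other cell types were also detected, and no gene of any of the 7 marker lists was at 0 in all libraries. The cartilage collagen Col2a1 was the most abundant member of its list, with a mean of 249 CPM in female and 262 CPM in male MEFs. The macrophage list summed to 46.8 to 145 CPM in female MEFs and 9.44 to 19.5 CPM in male MEFs, and the epithelial list to 77.2 to 137 CPM and 41.7 to 54.4 CPM. In these bulk samples, fewer cells of a type and less RNA per cell cannot be told apart.

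Both male libraries numbered 3 stood apart from the other 4 male libraries in Dkk3, Wnt5a and the fibroblast, epithelial and cartilage marker lists (the last with 9 genes such as Col2a1 and Acan). The fibroblast list summed to 19757 CPM in male WT library 3 and 19437 CPM in male KO library 3, and to 24166, 24572, 23160 and 24206 CPM in the other 4. The epithelial list was at 54.4 and 48.04 CPM in them, against 41.7 to 45.8 CPM in the other 4. The cartilage list summed to 77.6 CPM in male WT library 3 and 177 CPM in male KO library 3, and to 230.0, 428, 322 and 496 CPM in the other 4. The effect of the KO on each member in male MEFs is given with and without both of those libraries.

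Per length, Wnt5a had the highest mean level of the members and Axin2 the lowest. On the scale of approximate TPM, which divides counts by gene length, computed with the merged exons of a gene as its length, the mean level over the 12 libraries was 62.4 for Wnt5a, 41.6 for Dkk3, 33.8 for Fzd2, 28.8 for Dkk2, 21.4 for Sfrp1 and 20.5 for Fzd1. It was 9.21 for Wnt9a, 8.54 for Sfrp2, 1.71 for Wnt5b and 0.626 for Axin2. Not every neighbour in this order was separated by more than the spread between libraries. Fzd1 exceeded Wnt9a and Sfrp2 exceeded Wnt5b in 12 of 12 libraries, and Wnt5b exceeded Axin2 in 11. Dkk2 exceeded Sfrp1 in 9 of 12 libraries and Fzd2 exceeded Dkk2 in 7. Sfrp1 exceeded Fzd1 in 6 and Wnt9a exceeded Sfrp2 in 6, so none of these pairs had a stable order over the 12 libraries. Some of these orders differed between the sexes. Mean TPM in female and male MEFs was 23.3 and 19.5 for Sfrp1 and 20.6 and 20.3 for Fzd1. It was 33.1 and 34.4 for Fzd2 and 33.9 and 23.6 for Dkk2. Wnt9a was at 10.3 and 8.14 and Sfrp2 at 8.16 and 8.91. The place of Dkk3 also differed between the sexes. In female MEFs its mean TPM of 22.5 was below those of Fzd2 (33.1), Dkk2 (33.9) and Sfrp1 (23.3), and in male MEFs its mean TPM of 60.6 was second to that of Wnt5a (66.9). Wnt5a exceeded Dkk3 in 6 of 6 female and 3 of 6 male libraries, and Dkk3 exceeded Fzd2 in 0 of 6 female and 4 of 6 male libraries.

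The members also differed in how far replicates varied. The biological coefficient of variation (BCV), edgeR's estimate of the spread between libraries of a group beyond counting noise, was 0.0617 for Fzd2 and 0.0778 for Fzd1, below the values of 0.0784 and 0.0829 fitted to genes of similar expression. It was 0.335 for Dkk3, 0.284 for Dkk2 and 0.309 for Sfrp2, against fitted values of 0.0769, 0.0801 and 0.148. The receptors were therefore measured with the narrowest intervals and these antagonists with wide ones. Axin2 had a BCV of 0.314 against a fitted value of 0.264, and Wnt5b one of 0.131 against 0.250.

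**Figure D1:**
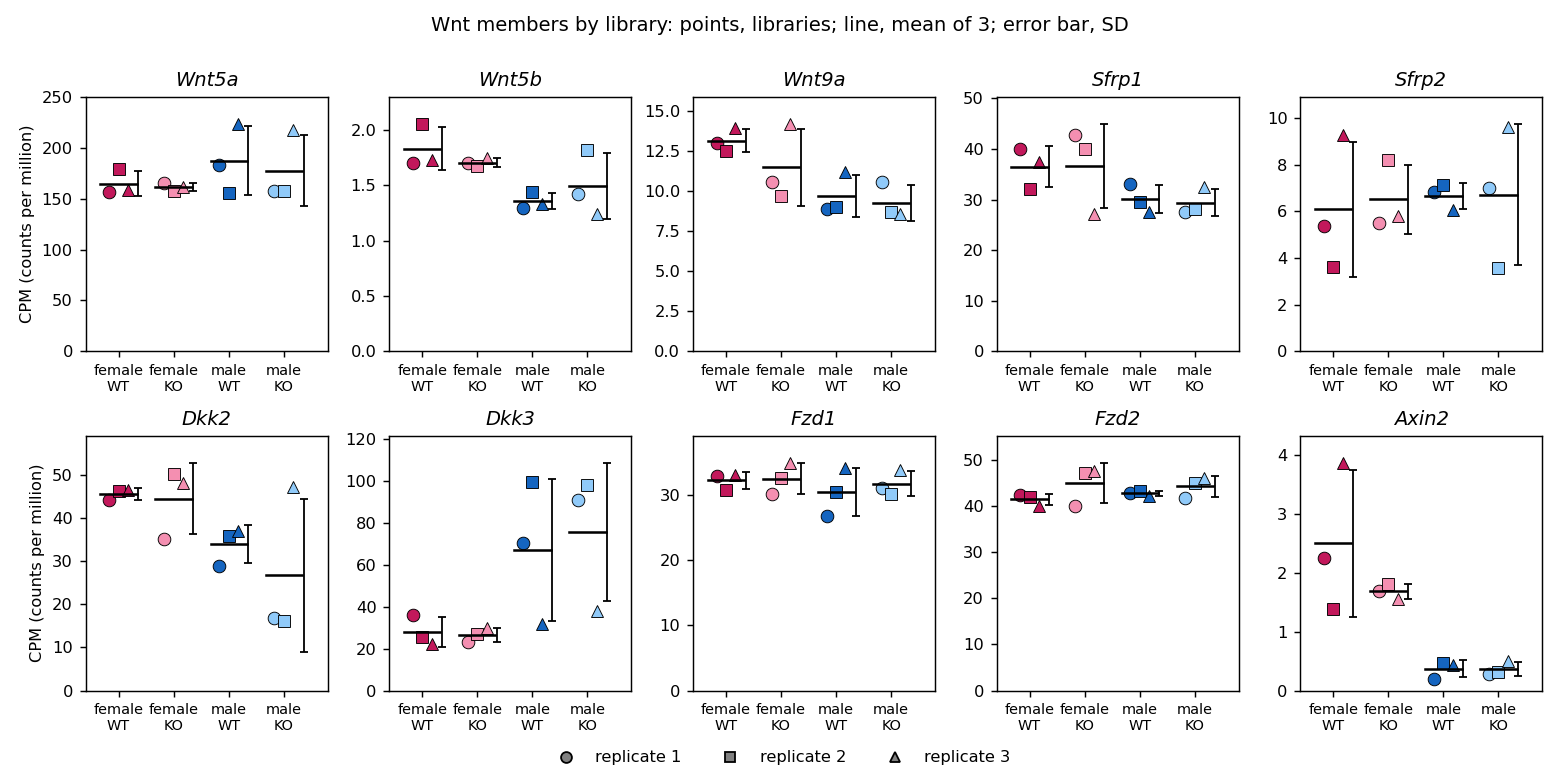
Expression of the 10 members in CPM (vertical axes from 0) in each library of the 4 groups, with the mean (line) and SD (bar) of 3 replicates and a symbol for each replicate number. Within each sex the KO and WT libraries of every member overlap, and Axin2 ranges from 1.39 to 3.86 CPM in female MEFs and from 0.202 to 0.496 CPM in male MEFs.

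The first comparison asked whether the deletion of Firre altered the expression of these genes. None of the 10 members was called in female MEFs or in male MEFs at the thresholds of the study's methods, which are an adjusted p below 0.01 together with a log2 fold change beyond 1 in either direction (quasi-likelihood test of edgeR, adjusted by Benjamini-Hochberg). No member had an unadjusted p under 0.05 in either sex, and DESeq2 also called 0 members. The share of all tested genes called was 0.00650% for the KO in female MEFs and 0.00650% for that in male MEFs, and for the average of the sexes it was 0.00650%, which is 1 gene, Firre, in each. With the replicate number as a block, 0 genes were called in each sex. The KO and WT libraries of all 10 members overlapped in both sexes, while among all tested genes 19.1% did not overlap in female MEFs and 5.29% did not overlap in male MEFs. The median absolute log2 fold change of the members was 0.079 in female MEFs, where that of all tested genes was 0.083, and 0.063 in male MEFs, where that of all tested genes was 0.057.

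Among the ligands, Wnt5a signals mainly through the branches without beta-catenin and has a known role in the outgrowth of limbs and face. Its expression was 156, 179 and 159 CPM in the female WT libraries and 165, 158 and 161 CPM in the female KO libraries. In male MEFs it was 183, 156 and 224 CPM in the WT and 157, 158 and 218 CPM in the KO. The female libraries lay close together, and both male libraries numbered 3 were higher than the other male libraries. The log2 fold change in KO against WT was -0.03 (SE 0.14) for female and -0.08 (SE 0.14) for male MEFs, and its 95% intervals ran from -0.34 to 0.28 and from -0.38 to 0.23. Without both male libraries numbered 3, the log2 fold change in male MEFs was -0.11.

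Wnt5b, a close relative of Wnt5a, was expressed at 1.83 ± 0.194 CPM (SD, n = 3) in female WT, 1.71 ± 0.0380 CPM in female KO, 1.36 ± 0.0716 CPM in male WT and 1.49 ± 0.296 CPM in male KO MEFs. Wnt9a, a ligand with a known role in joint formation, was at 13.1 ± 0.706, 11.5 ± 2.39, 9.69 ± 1.30 and 9.24 ± 1.11 CPM (SD, n = 3) in the same order. The log2 fold change of Wnt5b in the KO was -0.10 (SE 0.16) in the female and 0.14 (SE 0.16) in the male cells. That of Wnt9a was -0.20 (SE 0.14) and -0.07 (SE 0.14). No difference was larger than the spread between replicates. Without both male libraries numbered 3, the value of Wnt9a in male MEFs changed sign to 0.10, and that of Wnt5b was 0.24.

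Sfrp1 and Sfrp2 are secreted proteins with a Frizzled-like domain that binds Wnts. Sfrp1 was at 36.5 ± 4.02 CPM (SD, n = 3) in female WT and 36.6 ± 8.35 CPM in female KO MEFs. The male values were 30.1 ± 2.77 CPM (WT) and 29.4 ± 2.74 CPM (KO). Its log2 fold change in the KO was 0.00 (SE 0.15) for female and -0.03 (SE 0.15) for male MEFs, and -0.17 in male MEFs without both libraries numbered 3. Sfrp2 varied more, with 5.38, 3.62 and 9.29 CPM in female WT, 5.50, 8.21 and 5.82 CPM in female KO, 6.82, 7.12 and 6.04 CPM in male WT and 6.99, 3.56 and 9.60 CPM in male KO libraries. The highest and the lowest Sfrp2 value both came from male KO MEFs. Its log2 fold change in the KO was 0.09 (SE 0.37) in the female and 0.01 (SE 0.36) in the male cells, with intervals from -0.71 to 0.89 and from -0.78 to 0.80. Without both male libraries numbered 3, the value in male MEFs was -0.41.

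Dkk2 is a secreted protein that binds the co-receptors Lrp5 and Lrp6. It was expressed at 44.1, 46.2 and 46.6 CPM in female WT and 35.1, 50.3 and 48.2 CPM in female KO libraries. In male MEFs it was at 29.0, 35.8 and 37.1 CPM in the WT and at 16.8, 16.2 and 47.1 CPM in the KO. Male KO libraries 1 and 2 were thus the lowest of all 12 libraries, whereas male KO library 3 was above each male WT library. The log2 fold change in the KO was -0.04 (SE 0.33) in female and -0.35 (SE 0.34, 95% interval -1.09 to 0.39) in male MEFs. Without male KO library 3 alone, the value in male MEFs was -1.04, and without both male libraries numbered 3 it was -0.98, with an adjusted p of 0.274 (edgeR, quasi-likelihood test, Benjamini-Hochberg).

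Dkk3 is a divergent member of the same family. It was at 35.8, 25.6 and 22.2 CPM in female WT and 23.0, 27.0 and 29.6 CPM in female KO libraries, and at 70.6, 99.4 and 31.8 CPM in male WT and 90.7, 98.3 and 37.9 CPM in male KO libraries. The libraries numbered 3 were the lowest of each male group. The log2 fold change in the KO was -0.07 (SE 0.41) in the female and 0.17 (SE 0.39) in the male cells, and 0.15 in male MEFs without both libraries numbered 3. Leaving out male WT library 3 alone gave -0.17 in the male cells, and leaving out male KO library 3 alone gave 0.49.

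Fzd1 and Fzd2 are receptors that bind Wnt ligands. Fzd1 was at 32.3 ± 1.30, 32.5 ± 2.35, 30.4 ± 3.70 and 31.7 ± 1.94 CPM (SD, n = 3) in female WT, female KO, male WT and male KO MEFs, and Fzd2 at 41.5 ± 1.28, 45.0 ± 4.35, 42.9 ± 0.574 and 44.3 ± 2.32 CPM. Fzd2 had the largest value for the KO of the members whose mean was higher in female KO MEFs, a log2 fold change of 0.12 (SE 0.07), with an adjusted p of 0.707 (edgeR, quasi-likelihood test, Benjamini-Hochberg). The 95% intervals of Fzd1 ran from -0.18 to 0.20 in female and from -0.13 to 0.25 in male MEFs, and those of Fzd2 from -0.03 to 0.26 and from -0.10 to 0.19. Their values in male MEFs were 0.06 (SE 0.09) and 0.05 (SE 0.07), and without both male libraries numbered 3 they were 0.09 and 0.0049.

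Axin2 encodes a scaffold of the beta-catenin destruction complex and is a target of beta-catenin that is widely used as a readout of the canonical branch. Its counts were low, 63 to 205 per female library and 12 to 29 per male library. Its expression was 2.24, 1.39 and 3.86 CPM in female WT and 1.70, 1.80 and 1.55 CPM in female KO libraries. In male MEFs it was 0.202, 0.468 and 0.431 CPM in the WT and 0.288, 0.308 and 0.496 CPM in the KO. The female KO libraries lay between the lowest and the middle WT library, and library 3 raised the mean of the female WT. That library also had the highest sums of the 6 female WT and KO libraries for the epithelial (137 CPM), skeletal muscle (158 CPM), neural (124 CPM) and endothelial (38.3 CPM) lists, and the lowest for the fibroblast list (16487 CPM). The log2 fold change in the KO was -0.57 (SE 0.36, 95% interval -1.36 to 0.21, adjusted p = 0.743) in female MEFs and -0.02 (SE 0.43, 95% interval -0.97 to 0.92, adjusted p = 1) in male MEFs (edgeR, quasi-likelihood test, Benjamini-Hochberg). Without female WT library 3, the value in female MEFs was -0.11, and without female WT library 2 it was -0.86. That in male MEFs was -0.18 without both male libraries numbered 3. The part of other cell types in the female value was not tested.

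**Figure D2:**
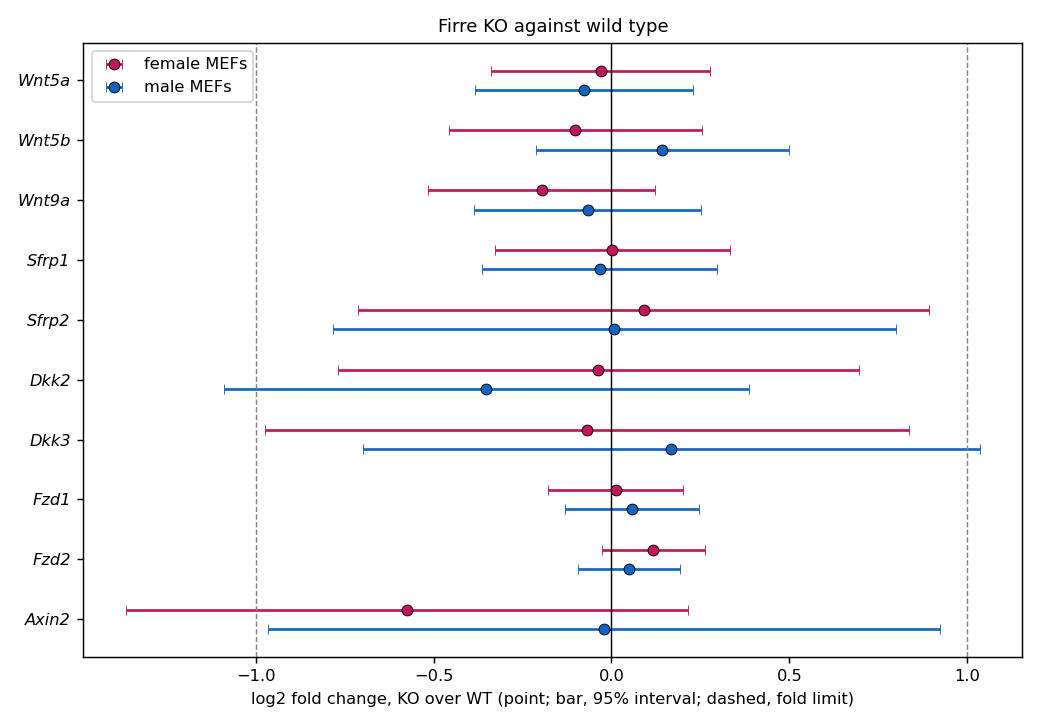
Log2 fold change of the 10 members in Firre KO against WT MEFs (horizontal axis) with 95% intervals from edgeR, in female and in male MEFs, and dashed lines at the fold limit of 1. Every interval includes 0, and Axin2 in female MEFs lies furthest from it at -0.57.

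The 95% interval lay inside the fold limit, between -1 and 1 on the log2 scale, for 9 of 10 members in female MEFs (the exception was Axin2) and for 8 of 10 in male MEFs (the exceptions were Dkk2 and Dkk3). Averaged over the sexes, it did so for 10 of 10 members, 0 members were called, and the values ran from -0.30 for Axin2 to 0.08 for Fzd2. The lowest value depended on single libraries, since Axin2 was at -0.07 without female WT library 3 and at -0.44 without male WT library 1. Dkk2 went from -0.19 to -0.54 without male KO library 3. The effects of the KO in the 2 sexes did not differ detectably: 0 members were called for the difference, where 0% of all tested genes were called, and no member had an unadjusted p under 0.05. DESeq2 also called 0 members there. A permutation of 3 libraries against 3 cannot reach a p below 0.10, and the smallest p of any member in either sex was 0.4 (two-sided exact permutation test on log2 of CPM plus 1). The same held across the pathway: of 94 tested genes on the Wnt pathway lists, members included, 0 were called in either sex or on average, and 3 (female), 1 (male) and 5 (average) had an unadjusted p under 0.05. These are 3.19%, 1.06% and 5.32% of the pathway genes, beside 7.55%, 2.06% and 6.24% of all tested genes.

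The second comparison was of female with male MEFs, in which sex, embryo and culture cannot be told apart. Axin2 was higher and Dkk3 lower in female MEFs, so 2 of 10 members were called when averaged over the genotypes, where 6.80% of all tested genes were called (4.55% higher and 2.25% lower in female MEFs). At an adjusted p under 0.05 with no fold limit, 5 of 10 members passed, where 54.5% of all tested genes passed. In the WT 1 of 10 members was called, where 4.54% of all genes were, and in the KO 1 of 10, where 3.89% were. In both cases this was Axin2.

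Axin2 averaged 2.09 CPM in the 6 female libraries and 0.366 CPM in the 6 male libraries. Each female library was above each male library, and Axin2 was the 1 member of 10 for which the 6 libraries of each sex did not overlap, which 32.3% of all tested genes also showed (two-sided exact permutation test, p = 0.00216, the smallest that 6 against 6 allows). The log2 fold change was 2.76 (SE 0.40, adjusted p = 4.4e-04) in the WT, 2.21 (SE 0.40, adjusted p = 1.6e-03) in the KO and 2.49 (SE 0.28, adjusted p = 3.4e-05) on average (edgeR, quasi-likelihood test, Benjamini-Hochberg). Without female WT library 3, which had the highest value, the average was still 2.26. The 12 macrophage markers were all higher in female MEFs and 11 of them were called, and 9 of 9 epithelial markers were higher with 5 called. The neural (8 of 9), skeletal muscle (9 of 11) and endothelial (7 of 8) lists were also mostly higher in female MEFs, with 6, 6 and 3 genes called higher, and of 12 fibroblast markers 3 were higher, with 1 called higher and 2 called lower. The part of these cell types in the Axin2 difference was not tested.

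Dkk3 showed the opposite direction, with a mean of 27.2 CPM in the female and 71.5 CPM in the male libraries, a 2.63-fold difference. The ranges overlapped, because the highest female library (35.8 CPM) exceeded the lowest male library (31.8 CPM, WT library 3). Its log2 fold change in female against male MEFs was -1.39 (SE 0.29, adjusted p = 1.8e-03) on average, -1.28 (SE 0.41, adjusted p = 0.0291) in the WT and -1.51 (SE 0.41, adjusted p = 0.0136) in the KO (edgeR, quasi-likelihood test, Benjamini-Hochberg). Without male WT library 3 the value in the WT was -1.61 (adjusted p = 0.00506), and without male KO library 3 that in the KO was -1.83 (adjusted p = 0.00324), so Dkk3 was then called in each genotype by the same method. Without both, the average was -1.72. Leaving out male WT library 2 instead gave -0.88 in the WT, which is inside the fold limit. Leaving out male KO library 2 gave -1.28 in the KO. In the male libraries the Dkk3 level, the fibroblast list and the cartilage list were lowest in the same library of each genotype. Between the sexes the cartilage list overlapped, with sums of 165 to 399 CPM in female and 77.6 to 496 CPM in male MEFs, and 0 of its 8 tested genes were called. The fibroblast list also overlapped, but 7 of its 12 genes were lower in female MEFs at an adjusted p under 0.05 and 1 was higher. The part of these cell types in the Dkk3 difference was not tested.

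Dkk2 was higher in the female libraries, with a mean of 45.1 CPM against 30.3 CPM, but its adjusted p of 0.0556 for an average log2 fold change of 0.58 (SE 0.24) missed both thresholds (edgeR, quasi-likelihood test, Benjamini-Hochberg). The difference was larger without male KO library 3, where the average was 0.93 with an adjusted p of 2.97e-05 (edgeR, quasi-likelihood test, Benjamini-Hochberg), and Dkk2 was called in the KO, with a log2 fold change of 1.43 and an adjusted p of 1.21e-04 in the same test. Without male WT library 3 instead, the average was 0.62 with an adjusted p of 0.0679 in the same edgeR test, and without both libraries it was 0.96. Leaving out male KO library 2 lowered the average to 0.45 and the value in the KO to 0.48.

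**Figure D3:**
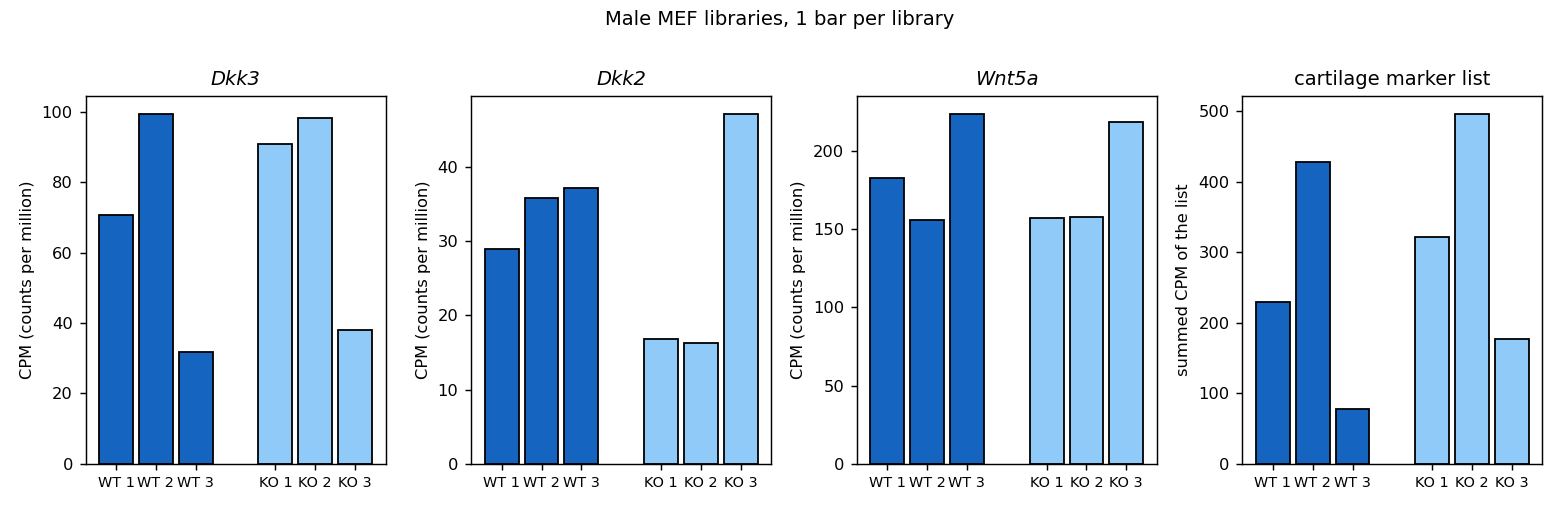
Expression of Dkk3, Dkk2 and Wnt5a in CPM and summed CPM of the cartilage marker list (vertical axes from 0) in each of the 6 male libraries, 1 bar per library. Dkk3 and the cartilage list are lowest in library 3 of each genotype (31.8 and 37.9 CPM for Dkk3), Wnt5a is highest there, and Dkk2 in KO library 3 (47.1 CPM) exceeds KO libraries 1 and 2.

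Smaller differences between the sexes were measured for 3 other members, which passed an adjusted p under 0.05 on average but not the fold limit. Wnt9a was 1.30-fold higher in female MEFs (log2 fold change 0.38, SE 0.10, adjusted p = 9.2e-03), Wnt5b 1.24-fold (0.31, SE 0.11, adjusted p = 0.0384) and Sfrp1 1.23-fold (0.30, SE 0.11, adjusted p = 0.0330) by the quasi-likelihood test of edgeR (Benjamini-Hochberg). The adjusted p was at or above 0.05 under 11 of 20 alternatives for Wnt5b, reaching 0.103, and under 9 of 20 for Sfrp1, reaching 0.0864, and it was at most 0.0252 for Wnt9a (Benjamini-Hochberg, by edgeR except in the alternative with DESeq2). The ranges of the female and male libraries overlapped for each of these. Wnt5a had a value of -0.16 (SE 0.10), and of -0.0026 without both male libraries numbered 3. The values of the rest were close to 0 or uncertain: -0.08 (SE 0.26) for Sfrp2, 0.06 (SE 0.06) for Fzd1 and -0.01 (SE 0.05) for Fzd2. For Fzd2 the interval ran from -0.11 to 0.09. The effect of sex was not detectably different between the genotypes for any member, since this is the same test as the difference in the effect of the KO above.

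**Figure D4:**
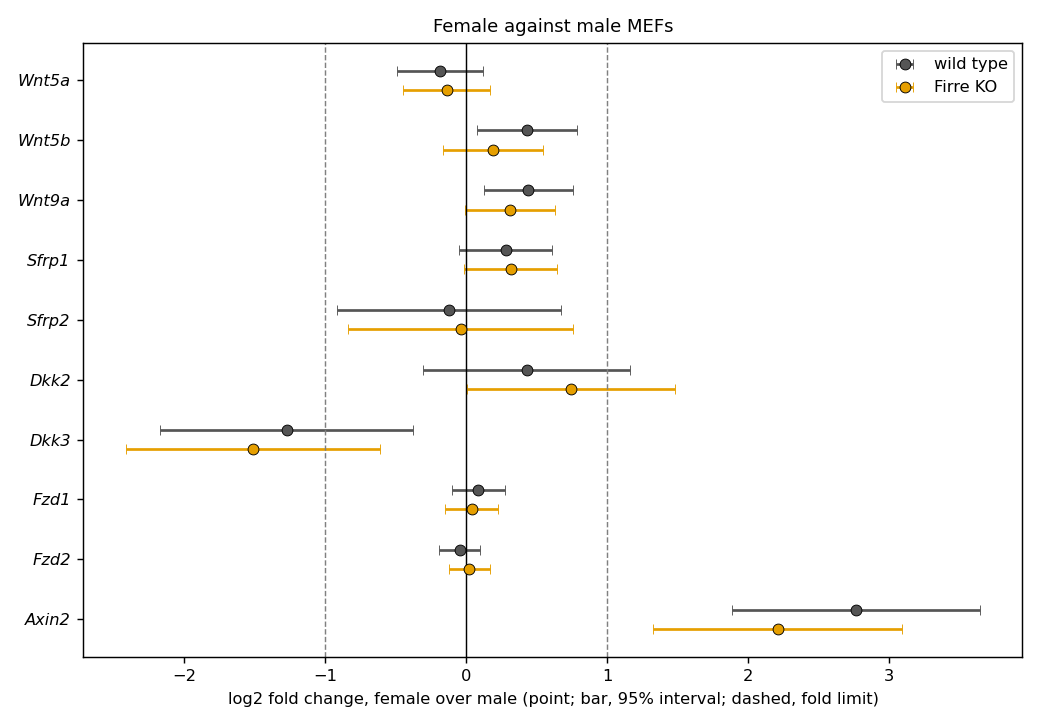
Log2 fold change of the 10 members in female against male MEFs (horizontal axis) with 95% intervals from edgeR, in the WT and in the KO, and dashed lines at the fold limit of 1. Axin2 lies at 2.76 and 2.21, Dkk3 at -1.28 and -1.51, and both receptors close to 0.

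The other genes of the pathway were taken by role. Of the 94 tested genes, members included, 11 were called in female against male MEFs on average (11.7%, beside 6.80% of all genes), 5 higher and 6 lower in female MEFs. Of 12 tested ligands, 2 were higher and 3 lower. Wnt7a, known for patterning the back of the limb, had a log2 fold change of 3.16 (SE 0.39) and Wnt2b one of 1.08 (SE 0.13). Wnt10b, a ligand of the canonical branch, had a value of -1.94 (SE 0.21), Wnt10a of -2.68 (SE 0.42) and Wnt4 of -1.19 (SE 0.27). All were expressed at low levels, with a mean of 10.9 CPM for Wnt2b in female MEFs and at most 7.67 CPM for Wnt10b in any library. Wnt7a was at 0.397 to 1.02 CPM in female and 0.0169 to 0.134 CPM in male MEFs. Wnt10a was at 0 to 0.236 CPM in female and 0.562 to 1.05 CPM in male MEFs. Both were near 0 in 1 sex, so the sizes of their fold changes are uncertain.

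Of 9 tested secreted antagonists, Dkk3 was the 1 called. Of 17 tested receptors and co-receptors, none was called (by edgeR, 4 were higher and 1 lower at an adjusted p under 0.05, a cut that 54.5% of all tested genes passed), which includes Fzd1 and Fzd2. Of 15 tested target genes of beta-catenin, 2 were called higher, Axin2 and Tnfrsf19, a receptor of the TNF receptor family (1.97, SE 0.37). In the same list Lgr5, a receptor for R-spondins, fell by 2.35 (SE 0.43) in female MEFs, and the median log2 fold change of the list was 0.18 beside -0.0039 for all tested genes. Axin2 and Lgr5, which are both targets of the canonical branch, thus differed between the sexes in opposite directions. Among 24 transducers Tle2, a co-repressor that binds TCF/LEF factors, fell by 2.20 (SE 0.18). Among 13 genes of the polarity and calcium branch Celsr1, a cadherin of planar polarity, was higher by 1.02 (SE 0.26). Mean levels in female and male MEFs were low, at 1.56 and 0.388 CPM for Tnfrsf19 and 0.447 and 2.29 CPM for Lgr5. Tle2 was at 0.848 and 3.91 CPM and Celsr1 at 1.35 and 0.662 CPM.

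**Figure D5:**
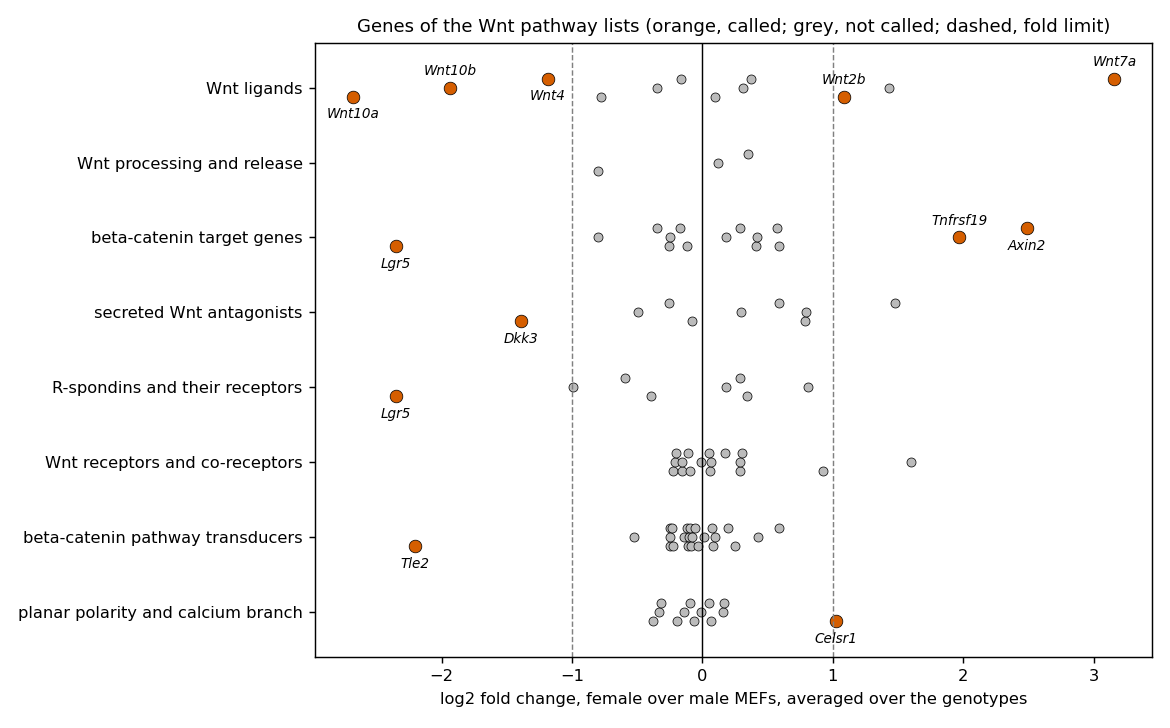
Log2 fold change in female against male MEFs averaged over the genotypes (horizontal axis) for the tested genes of each Wnt pathway list (rows), with called genes in orange and named. Called genes lie on both sides of 0, with Wnt7a at 3.16 and Wnt10a at -2.68 furthest out. Wnt7a averaged 0.0675 CPM in male and Wnt10a 0.120 CPM in female MEFs, so the sizes of both are uncertain. The receptors and co-receptors hold no called gene. Lgr5 stands in 2 lists.

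The upstream sequences of 3 members, Axin2, Dkk2 and Wnt5b, are shown from the promoter table of RefSeq (GRCm38.p6). Axin2 was called between the sexes, and Dkk2 was called between the sexes in the KO without male KO library 3. Of the Wnt5b windows, the 1 shown was the only window of the members with a TCF/LEF motif. The table held 8 promoters of 6 of the 10 members (Wnt5b, Wnt9a, Sfrp2, Dkk2, Fzd1 and Axin2). Each sequence is the 250 bases before an annotated start, 5′ to 3′ on the strand of the gene, with capitals for a match to a TCF/LEF core motif (CTTTGAA or CTTTGAT or CTTTGTA or CTTTGTT on either strand) or to the TATA box motif TATAAA on the strand of the gene. The windows are chr11:108920099-108920348 (plus strand) for Axin2, chr3:132085042-132085291 (plus strand) for Dkk2 and chr6:119449387-119449636 (minus strand) for Wnt5b.
Axin2: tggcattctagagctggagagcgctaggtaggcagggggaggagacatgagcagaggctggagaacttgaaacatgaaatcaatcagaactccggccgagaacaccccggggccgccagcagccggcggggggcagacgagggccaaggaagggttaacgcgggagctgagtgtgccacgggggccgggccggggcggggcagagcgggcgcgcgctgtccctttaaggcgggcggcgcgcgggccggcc
Dkk2: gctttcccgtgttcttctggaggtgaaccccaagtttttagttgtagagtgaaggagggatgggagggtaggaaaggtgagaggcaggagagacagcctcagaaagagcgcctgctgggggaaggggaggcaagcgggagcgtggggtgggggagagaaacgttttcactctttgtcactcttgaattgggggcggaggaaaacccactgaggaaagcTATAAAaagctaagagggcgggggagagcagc
Wnt5b: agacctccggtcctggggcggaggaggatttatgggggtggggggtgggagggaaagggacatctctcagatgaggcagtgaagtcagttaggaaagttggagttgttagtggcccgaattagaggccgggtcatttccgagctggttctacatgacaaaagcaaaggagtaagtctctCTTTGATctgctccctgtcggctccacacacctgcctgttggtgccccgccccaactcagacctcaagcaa

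The Axin2 window held neither motif and had a GC content of 69.2%. That of Dkk2 had a GC content of 55.6% and held TATAAA with its first base 32 bases before the start, and the Fzd1 window, not shown, held it 202 bases before the start. The Wnt5b window shown held 1 TCF/LEF core (CTTTGAT), with its first base 71 bases before the start. The other Wnt5b windows, not shown, held neither motif. In the same 250 bases, 14.8% of the 32851 promoters of the table held a TCF/LEF core and 7.59% held TATAAA on the strand of the gene. These matches describe the letters in these windows alone.

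In the annotation of the build mm9, which the files use, Axin2 lies at chr11:108781663-108812097 on the plus strand, Dkk3 at chr7:119259533-119302571 on the minus strand and Dkk2 at chr3:131748256-131843257 on the plus strand. Fzd1 and Fzd2 each have a single exon, and the values cover the annotated exons of each gene. Wnt5a, Sfrp2 and Axin2 share 358, 347 and 209 exonic bases with a gene on the opposite strand, and since the library kit does not mark strand, reads from these stretches cannot be told apart. For Axin2 the partner, Gm11670, was assigned 0 counts in every library. Expected counts of Wnt5a and Sfrp1 were not whole in any library, so part of their reads also matched other genes.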

How the data were processed

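RNA-seq of 12 MEF libraries (4 groups of 3 replicates, by sex and genotype from the labels) was analysed. The authors mapped the reads to mm9 with Bowtie2, quantified genes with RSEM 1.2.29 and deposited the unscaled expected counts. DESeq2 1.4.5 and R 3.1.0 are also named in the submitters' processing notes. The depth limits the precision for Axin2, the lowest member, in male MEFs. The Hi-C files were not used here, and no other sample of the study was analysed here.

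Expected counts were rounded and tested with edgeR 4.0.16 (R 4.3.3, quasi-likelihood, TMM, filterByExpr) with 1 mean per group, 8 residual degrees of freedom and Benjamini-Hochberg adjustment over 15387 genes. A gene was called at an adjusted p below 0.01 and a log2 fold change beyond 1 in either direction. Contrasts were KO against WT in each sex and averaged, their difference, and female against male in each genotype and averaged. Approximate TPM used merged exon lengths of the annotation of NCBIM37, in which all 37310 gene identifiers occur. Exact permutation tests used SciPy 1.17.1 and log2 of CPM plus 1, and plots used matplotlib 3.10.9. The edgeR fit, with and without a replicate block, and DESeq2 were tested on simulated counts. The simulations covered the KO in female MEFs and female against male MEFs on average. The other procedures were not tested in this way. In each of the 12 pairs of replicates the counts differed beyond sampling noise, with chi-square values of at least 7.11 per degree of freedom.

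The genes named were the 10 members in every comparison, Firre as the check of genotype and, of the pathway lists, the called genes, at most 4 per list and direction. The members and lists were chosen with earlier results of these data known. In male MEFs same-numbered WT and KO libraries deviated together, which comes from the data and not from the labels. Over 10208 genes above 5 CPM, their deviations from the group means correlated at 0.344, 0.447 and 0.535 (numbers 1, 2 and 3). The highest correlation of each male WT library with a KO library of another number was 0.285, 0.161 and -0.351. Number 1 was thus hardly set apart. In female MEFs the same-number correlations were -0.167, -0.0750 and -0.160. The alternatives were DESeq2 1.42.0, other scalings, other count filters, fits of only the libraries compared, no fold limit, a replicate block, equal depth and each library left out. A block within each sex and the removal of both male libraries numbered 3 were added after seeing the data.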

Additional observations from a re-analysis of the deposited data

How the results depend on the processing

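For KO against WT, 0 members were called in either sex, on average or for the difference between the sexes under every alternative run, including the replicate block (0 in female and 0 in male MEFs). Signs of these small values did change in 19 of 230 values in female, 23 of 230 in male MEFs, 17 of 220 for the average and 16 of 220 for the difference. The call of Firre, the 1 gene called in each sex, was lost (0 genes) with the replicate block in each sex, with only the 6 libraries of a sex in the fit, and with at least 10 counts in every library, which removes Firre itself. The block and the fits of 6 libraries thus missed a gene with 0 counts in every KO library. The 0 members called under them therefore say little about an effect of the KO. DESeq2 called 4 genes in female and 2 in male MEFs, 3 on average and 1 for the difference.

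For female against male MEFs, no call of a member at an adjusted p under 0.01 with the fold limit was lost, while Wnt5b and Sfrp1 did not keep an adjusted p under 0.05 on average under 11 and 9 of 20 alternatives. In the WT, where 1 member was called, 3 were called without the fold limit and 2 without both male libraries numbered 3, and leaving out each replicate gave 1 to 2 (2 without male WT replicate 3). In the KO, where 1 was called, 2 were called with DESeq2, with no filter on low counts or without the fold limit, and 3 without both male libraries numbered 3. There, leaving out each replicate gave 1 to 3 (2 without male WT replicate 2 or 3, and 3 without male KO replicate 3). The average changed from 2 to 5 members without the fold limit and held 2 with the replicate block. Signs changed in 2 of 220 values in the WT, 11 of 220 in the KO and 6 of 210 on average. Over all genes, the 599 calls in the KO fell to 370 when only the libraries compared were fitted and to 329 without male KO replicate 1, the 698 in the WT to 432 without male WT replicate 1, and the 1046 on average to 570 with at least 10 counts in every library. The order of the members by level was the same with the longest transcript or CPM per kb.

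With 3 libraries a group, moderate changes in the KO could not be seen for Axin2 (12 to 29 counts in the male libraries), Sfrp2, Dkk2 and Dkk3. Their SEs for the KO were 0.33 to 0.43, and that of Wnt5b, which was also low, was 0.16 in each sex. Shared replicate numbers say nothing of a shared embryo, and the cause of the difference between the male libraries was not tested.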
